A study of Sus scrofa with 8 samples.

Results

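LY75, XCR1 and CCR7 are receptors that dendritic cells carry, and their mRNA levels in pig blood are described here across 8 animals, out of 1924 genes that could be named on the array. Probes were taken where the array files name the gene by symbol, by the symbol in the probe description or by its full name, which gave 3 genes and 4 of the 43603 probes of the array: 2 for LY75, 1 for XCR1 and 1 for CCR7. The set was chosen by results of the diet comparison on these same arrays (levels, detection and difference), in which LY75 stood among the lower genes of small unadjusted p, so the differences between the diets in these genes are given as a description and without a test.

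The animals were female Clawn miniature pigs aged 8 to 9 months, labelled as conventional animals. The 4 controls received the standard dry feed. The 4 SDW animals received that feed with equal weights of water and of SDW, shochu distilled water. Shochu is a distilled spirit of Japan, and the labels leave the makeup of the liquid unstated. Blood was taken at 12 weeks of feeding by the design text. In the sample descriptions, replicate 1 of either diet has 14 weeks, replicate 2 has 15, replicate 3 has 16 and replicate 4 has 17. Each animal gave 1 whole blood sample and 1 array, so the spread between replicates is the spread between animals and arrays together.

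A dendritic cell takes up antigen, moves to a lymph node and shows the antigen to T cells. LY75, also called DEC-205, is a large C-type lectin of the mannose receptor family that carries bound material into the cell for presentation. XCR1 is the receptor for the chemokine XCL1 and marks the conventional type 1 dendritic cells, which are known for presenting antigen to CD8 T cells. CCR7 is the receptor for CCL19 and CCL21, the chemokines that draw maturing dendritic cells into lymph nodes, and it is also carried by naive and central memory T cells and by B cells. Dendritic cells are rare among blood leukocytes, and in a bulk blood sample fewer cells of a type and less RNA per cell cannot be told apart.

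The results turn on LY75, for which the array holds a pair of probes with different behaviour, so both sequences are shown. Probe A_72_P213522 carries the gene name LY75 in the files and was designed on an expressed sequence tag (EST), a single-pass read of a cDNA clone; it is called the EST probe below. Probe A_72_P186316 carries no gene symbol, and its description names a pig lymphocyte antigen 75 sequence; it is called the cDNA probe.
LY75 EST probe: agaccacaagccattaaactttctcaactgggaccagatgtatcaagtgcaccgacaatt
LY75 cDNA probe: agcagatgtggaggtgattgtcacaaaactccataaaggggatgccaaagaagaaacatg
Each has 60 bases and a GC content of 43.3%, and the longest run of bases they share on either strand is 7, so they read separate stretches. The files give both as unmapped, and their place in the LY75 transcript was not analysed here. XCR1 was read by probe A_72_P232622 and CCR7 by probe A_72_P223792, each named by symbol and by full name. Every one of these probes has 1 spot on an array, and none was saturated.

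The level of a probe is the log2 of its spot intensity relative to that array's 75th percentile, which lay between 39.9 and 73.1 intensity units. The share of probes well above background on an array was from 35.2% to 43.5%. There were 3 slides, and both diets were on each. Slide 1 held control 3 with SDW 2 and SDW 3. Slide 2 held SDW 1 with control 2 and control 4. Slide 3 held control 1 with SDW 4 and was scanned on another day. Slide 3 stood apart from the others over the whole array: with diet in the model, 2467 of 17346 tested probes (14.2%) differed between slide 3 and slides 1 and 2 at an adjusted p under 0.05 (limma), 6.76% higher and 7.46% lower on slide 3.

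The EST probe of LY75 was lower in every SDW animal than in every control animal. Its level was -0.11, -0.50, -0.43 and -0.05 in controls 1 to 4. It was -1.10, -1.32, -1.34 and -1.99 in SDW animals 1 to 4. The groups did not overlap, and the lowest control stood 0.59 above the highest SDW animal. The means were -0.27 ± 0.22 (SD, n = 4) and -1.44 ± 0.39 (SD, n = 4), a log2 difference of -1.16 (standard error 0.26). Over the array, 0.386% of the tested probes had every SDW animal below every control animal, and the EST probe had the 48th most negative difference of the 17346. A difference of 1 or more in that direction was found in 0.577% of probes. These values chose the gene and support nothing further.

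The EST probe was dim, and this bears on its fold. Its spot intensity was between 30.7 and 56.4 units in controls and between 10.05 and 29.3 units in SDW animals. The scanner software gave these spots an error of 10.9% to 13.4% in controls and of 12.8% to 26.2% in SDW animals. It was well above background on all 4 control arrays and on 3 of 4 SDW arrays; SDW 4, the lowest, was not. With normexp background correction, whose offset of 50 units compresses dim spots, the difference was -0.26. Without that correction it lay between -0.98 (without SDW 4) and -1.28 (without SDW 1) when any 1 array was left out.

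**Figure D1:**
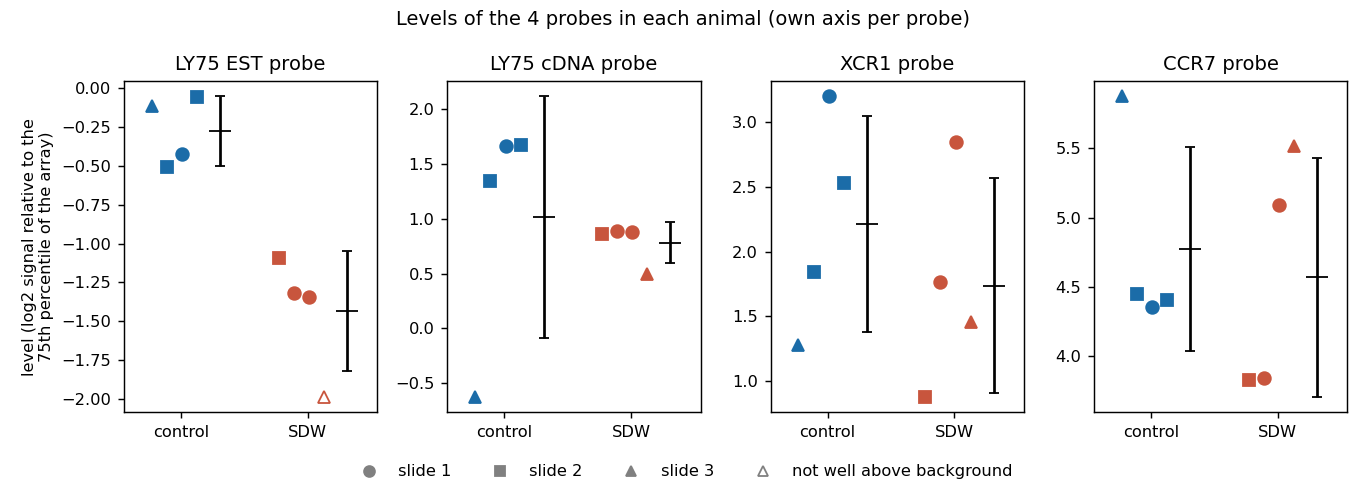
Level of each probe (log2 spot intensity relative to the 75th percentile of the array) in the 4 control (blue) and 4 SDW animals (red), with slide as the symbol, an open symbol where the spot was not well above background, and the mean with 1 SD as a black bar; each panel has its own axis. The EST probe of LY75 separates the diets, from -0.50 upwards in controls and from -1.10 downwards in SDW animals, while the other 3 probes overlap.

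The cDNA probe of LY75 did not separate the diets over all animals. Its level was -0.63, 1.35, 1.66 and 1.68 in controls 1 to 4. It was 0.86, 0.89, 0.88 and 0.50 in SDW animals 1 to 4. Control 1 was the lowest of all 8 animals and the other 3 controls were the highest, so the groups overlapped. The means were 1.01 ± 1.11 (SD, n = 4) and 0.78 ± 0.19 (SD, n = 4), a difference of -0.23 (standard error 0.48). This probe was well above background on all 8 arrays, with a spot error between 10.05% and 14.2%.

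Control 1 decided the value of the cDNA probe. Without it the difference was -0.78. On the 6 arrays of slides 1 and 2 the 3 controls lay between 1.35 and 1.68 and the 3 SDW animals between 0.86 and 0.89, with no overlap, which held for 2.47% of the tested probes. The difference over these 6 arrays was -0.68 for the cDNA probe and -0.92 for the EST probe. On slide 3 the probes went opposite ways: SDW 4 minus control 1 was 1.13 in the cDNA probe and -1.88 in the EST probe.

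**Figure D2:**
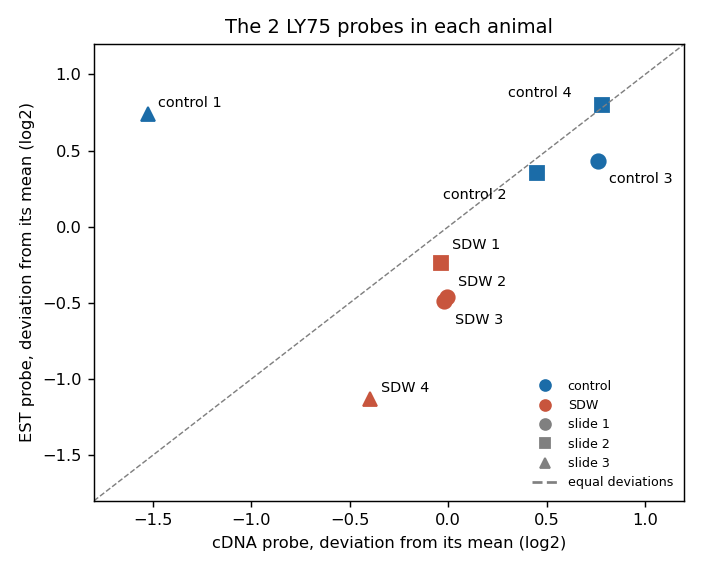
Deviation of each animal from the mean of the 8 arrays (log2) in the cDNA probe (horizontal) and the EST probe (vertical) of LY75, coloured by diet and shaped by slide, with a dashed line where both deviations are equal. Control 1 lies far from the line, at -1.53 in the cDNA probe and 0.74 in the EST probe, while the other 7 animals lie on the same side of 0 in both.

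The probes of LY75 were also set against each other within each animal. The deviation from the probe's own mean was on the same side of 0 in both probes in 7 of 8 animals. In the cDNA probe it was only -0.04, -0.01 and -0.02 in SDW 1, SDW 2 and SDW 3, so their side is unsettled. The deviation of the EST probe minus that of the cDNA probe was 2.27 in control 1 and between -0.74 and 0.02 in the other 7 animals. Both probes were well above background in control 1, at intensities of 51.1 (EST) and 35.7 (cDNA) units. Control 1 was also the array with the smallest share of probes well above background, 35.2%. Its spot error in the cDNA probe, 14.2%, was the highest of the arrays. What sets control 1 apart was not tested.

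XCR1 varied more among animals of the same diet than between the diets. Its level was 1.28, 1.84, 3.20 and 2.53 in controls 1 to 4. It was 0.87, 1.77, 2.85 and 1.46 in SDW animals 1 to 4. Control 3 was the highest animal and SDW 1 the lowest, and the groups overlapped over most of their range. The means were 2.21 ± 0.84 (SD, n = 4) and 1.74 ± 0.83 (SD, n = 4), a difference of -0.48 (standard error 0.50). The probe was well above background on all 8 arrays, with intensities between 109.7 and 379.5 units.

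The difference in XCR1 varied between the slides. SDW minus control was -0.90 within slide 1, -1.31 within slide 2 and 0.18 within slide 3. With slide as a fixed block the difference was -0.75 (standard error 0.35). The difference went from -0.15 (without control 3) to -0.85 (without SDW 3) when any 1 array was left out. Without slide 3 it was -0.70 (standard error 0.50), and -1.10 (standard error 0.37) with slide as a block on those 6 arrays, an alternative added after the data were seen.

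CCR7 was highest on both arrays of slide 3, whatever the diet. Its level was 5.87, 4.45, 4.36 and 4.41 in controls 1 to 4. It was 3.83, 3.85, 5.09 and 5.51 in SDW animals 1 to 4. SDW 1 and SDW 2 lay below all controls and SDW 3 and SDW 4 above all but control 1, so the diets overlapped. The means were 4.77 ± 0.74 (SD, n = 4) and 4.57 ± 0.86 (SD, n = 4), a difference of -0.20 (standard error 0.48). The sign of this difference turned without control 1 (0.16), without SDW 1 (0.04) and without SDW 2 (0.04), so the arrays give no settled direction for it. The probe was bright, between 845.6 and 3242 units, and well above background on all 8 arrays.

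**Figure D3:**
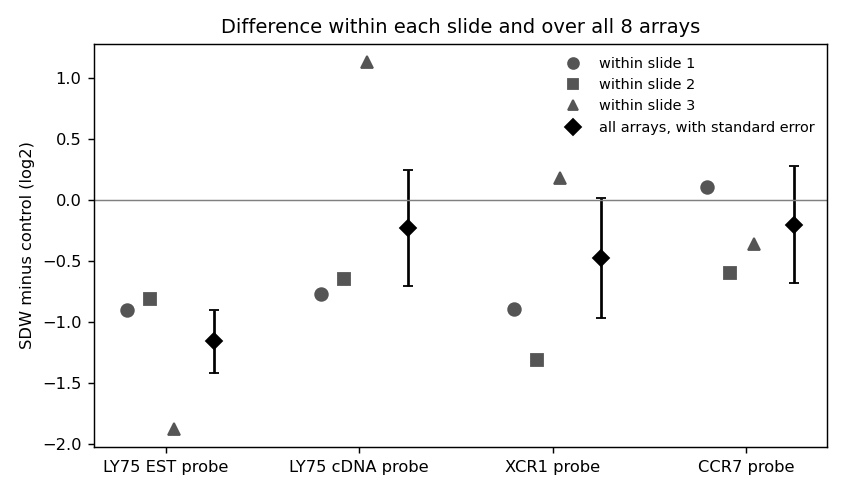
SDW minus control difference (log2) of each probe within slide 1 (circle), slide 2 (square) and slide 3 (triangle), beside the difference over all 8 arrays with its standard error (black diamond). The EST probe of LY75 is below 0 within each slide, at -0.90, -0.82 and -1.88, while each of the other probes has 1 slide on the other side of 0.

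The difference between the slides, unlike that between the diets, played no part in choosing the genes and was tested over all probes with diet in the model. CCR7 was 1.36 higher on slide 3 than on slides 1 and 2, (standard error 0.34, limma, adjusted p = 0.0261), and the cDNA probe of LY75 was 1.28 lower, (standard error 0.36, limma, adjusted p = 0.0423). XCR1 differed by -0.81 (standard error 0.51, limma, adjusted p = 0.314) and the EST probe of LY75 by -0.26 (standard error 0.28, limma, adjusted p = 0.563). Slide 3 was singled out because it stood apart. A test over all 3 slides gave adjusted p-values of 0.0611 for CCR7 and 0.105 for the cDNA probe of LY75 (limma), and neither passed. Animal, slide and scan day cannot be told apart in these differences, since slide 3 holds 1 animal of each diet.

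Over the array, the comparison of the diets called none, 0 of 17346 (0.00%), by the adjusted p of limma, with 251 at an unadjusted p under 0.05 (1.45%). In 12.7% of the tested probes SDW animals were lower within each of the 3 slides. The EST probe of LY75 was among them, as its groups without overlap require. With slide as a fixed block its difference was -1.14 (standard error 0.26), against -0.21 (standard error 0.34) for the cDNA probe and -0.28 (standard error 0.31) for CCR7. The median difference over all tested probes was 0.02, and the median SD of a probe over the 8 arrays was 0.42. The SD of each of the 4 probes was larger, between 0.69 (EST probe) and 0.81 (XCR1). That of the EST probe includes the diet difference that chose the gene. Within the diets its SD was 0.22 in controls and 0.39 in SDW animals.

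The profiles of the 3 genes over the animals differed. XCR1 and the cDNA probe of LY75 were on the same side of their own means in 6 of 8 animals, with a root mean square difference of 0.64 between the centred levels. CCR7 and the cDNA probe were on the same side in 2 of 8, with a root mean square difference of 1.28. For CCR7 and XCR1 it was 4 of 8 and 1.07. By the same measure, the probes of LY75 differed by 0.89. The side of the cDNA probe is unsettled in SDW 1, SDW 2 and SDW 3, which lie close to its mean.

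Named genes with the profile most like each member were then looked for among 1091 other genes with a tested probe, by the smallest root mean square difference of centred levels over the 8 arrays. The XCR1 profile was followed closely by CRAT, a carnitine acetyltransferase (0.12), CRISP2 (0.16), ADIPOR1, a receptor for adiponectin (0.17), and INSIG1, which restrains sterol synthesis (0.17). The root mean square of the XCR1 profile itself was 0.76. CRAT had its highest level in control 3 (9.96) and its lowest in SDW 1 (7.90), the same animals as XCR1.

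For CCR7 the nearest were SLC22A6, an organic anion transporter (0.17), PEX6, of the peroxisomal import machinery (0.18), CCS, the copper chaperone for superoxide dismutase (0.22), and HPD, an enzyme of tyrosine breakdown (0.23), against 0.70 for the CCR7 profile itself. SLC22A6 was highest in control 1 (1.44) and SDW 4 (1.29), the animals of slide 3. The neighbours of the LY75 cDNA probe were farther away: UBE2D3, a ubiquitin-conjugating enzyme (0.30), PPP1CB, a phosphatase subunit (0.34), HMGR, the reductase of sterol synthesis (0.35) and P2RY1, a receptor for ADP (0.36), against 0.70. The EST probe, chosen for this comparison after its values were seen, was nearest to CD46, which protects cells from complement (0.35), and TGFA, a growth factor (0.35), against 0.64. Its profile includes the diet difference that chose the gene, so genes lower in SDW animals come near it. The difference was -0.68 in CD46 and -0.64 in TGFA. The arrays share slides, and the profiles share that layout.

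**Figure D4:**
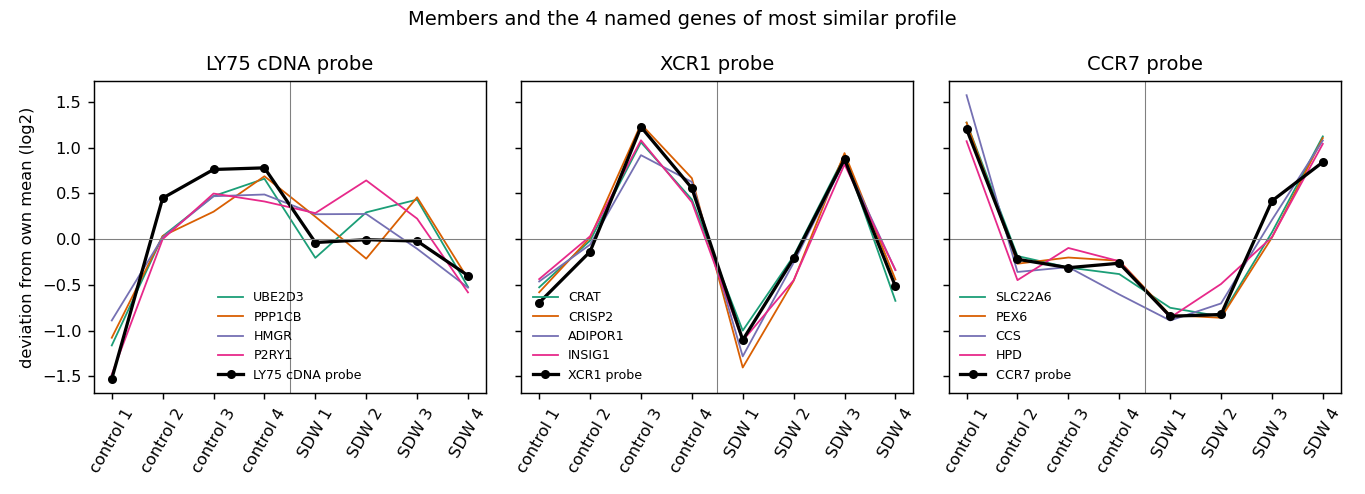
Deviation from its own mean over the 8 arrays (log2) for the cDNA probe of LY75, XCR1 and CCR7 (black) and for the 4 named genes of smallest root mean square difference (colours), by animal. XCR1 peaks in control 3 and SDW 3 and CCR7 in control 1 and SDW 4, the arrays of slide 3, and their neighbours follow at 0.12 to 0.23, closer than those of LY75 at 0.30 to 0.36.

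Other genes of dendritic cells were read from lists for conventional type 1 and type 2 cells, plasmacytoid cells, maturation, and the ligands of XCR1 and CCR7. Few of these genes have a named probe: 16 were measured, 10 stood lower and 6 higher in SDW animals, and 0 passed an adjusted p of 0.05 in limma, where 0.00% of all tested probes did. Of all tested probes 47.1% stood lower. Their median difference was -0.07 against 0.02 for all tested probes. Without control 1 the count of lower genes was 6.

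Of 17 other genes that mark the XCR1-bearing type 1 cells, 1 was measured: ID2, a transcriptional regulator those cells need, differed by 0.26 (standard error 0.27). IRF8 and TLR3 have a probe, and neither was well above background on any array. XCR1 itself was well above background on 4 of 4 arrays of each diet. CLEC9A, BATF3 and FLT3 are unnamed here, so XCR1 could not be set against them. Whether the XCR1 signal comes from type 1 cells was not tested. Of the type 2 list 5 were measured, 4 lower and 1 higher; 3 were lower with arrays centred on their median and 2 with normexp, where SIRPA stood above 0. CD1.1, a lipid-presenting molecule, differed by -0.41 (standard error 0.26) and CD2, which T cells also express, by -0.46 (standard error 0.30). SIRPA, an inhibitory receptor of myeloid cells, differed by -0.03. KLF4, a transcription factor, differed by 0.14 and was well above background on 3 of 4 arrays of each diet. From the plasmacytoid list, TLR7, a sensor of single-stranded RNA, differed by 0.37 (standard error 0.41), and IRF7, the interferon regulator, by -0.15 (standard error 0.57). A second IRF7 probe stood at -0.95.

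Among 7 measured genes of dendritic cell maturation, 5 stood lower and 2 higher. CD274, the inhibitory ligand PD-L1, had the widest difference, with a control mean of 0.01 ± 0.83 (SD, n = 4) against -0.74 ± 0.49 (SD, n = 4) with SDW, a difference of -0.75 (standard error 0.42). The costimulatory ligand CD86 differed by -0.20, its partner CD80 by 0.24, CD40 by -0.23 and the cytokine IL15, well above background on 3 of 4 arrays of each diet, by 0.39. CCL17, a chemokine of dendritic cells that attracts T cells, differed by -0.18 (standard error 1.11). Between slide 3 and the other slides 2 of the 7 maturation genes passed, in opposite directions, where 14.2% of all tested probes passed. CCL17 differed by 3.79 (limma, adjusted p = 0.00117) and CD80 by -1.04 (limma, adjusted p = 0.0487).

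Of the ligands, CCL19 had a control mean of 0.04 ± 0.41 (SD, n = 4) against 0.04 ± 0.37 (SD, n = 4) with SDW, a difference of 0.00 that took the other sign in 8 of 19 alternatives. CCL21 and the scavenging receptor ACKR4 each have a probe that was well above background on 0 arrays, and XCL1 is unnamed here.

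The other receptors of the same families gave 14 measured genes. Of 12 chemokine receptors 10 stood lower and 2 higher in SDW animals, with a median of -0.27, and 0 passed (limma). Over all tested probes 47.1% stood lower, the median was 0.02 and 0.00% passed. CCR2, the receptor of inflammatory monocytes, differed by 0.88 (standard error 0.24). Its groups did not overlap, as in 0.600% of all tested probes in that direction. CCR2 was higher within each slide, as were 15.0% of all tested probes, and its groups without overlap require this. CCR3, of eosinophils, differed by 0.53, and IL8RB, the older name of the neutrophil receptor CXCR2, by -0.51 (standard error 0.25). Over the arrays left out singly, the count of lower receptors went from 8 to 10, and without slide 3 it was 8. Of the C-type lectins, CD302, a small relative of LY75, differed by -0.23 (standard error 0.33), and OLR1, which binds oxidised lipoprotein, by -0.59 (standard error 0.36).

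**Figure D5:**
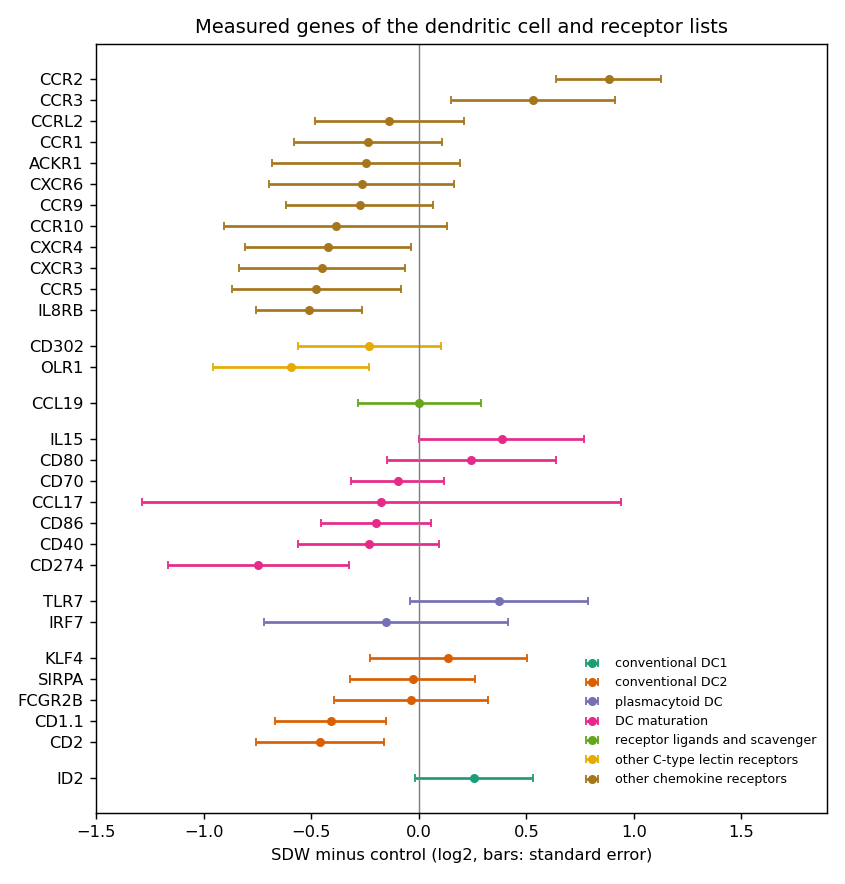
SDW minus control difference (log2, with its standard error) of the 30 measured genes of the dendritic cell and receptor lists, coloured by list, members left out. The values run from -0.75 (CD274) to 0.88 (CCR2), and none passed an adjusted p of 0.05 in limma.

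Markers of other blood cells that can carry these receptors were read beside them, as the mean over a list of each gene's deviation from its own mean. All 7 measured neutrophil genes stood lower in SDW animals, with a median of -0.51, and 0 passed (limma). Over all tested probes 47.1% stood lower, the median was 0.02 and 0.00% passed. The neutrophil list means went from -0.22 to 0.90 in controls, the highest being control 1, and from -0.57 to 0.12 in SDW animals. Of 6 T cell genes 3 stood higher and 3 lower, with a median of -0.09. Their list means went from -0.16 to 0.25 in controls and from -0.42 to 0.26 in SDW animals. The direction of CD3D and CD3G varied with the probe. CD3D was read at 0.26, with other probes at 0.44 and -0.86, and CD3G at -0.31, with another at 0.26. Between slide 3 and the other slides 14.2% of all tested probes passed. Of the 7 neutrophil genes 2 passed, both higher on slide 3, and of the 6 T cell genes 2 passed, in opposite directions. CD3E, a subunit of the CD3 complex, stood 1.32 higher there (limma, adjusted p = 0.0160) and CD8A, a coreceptor of cytotoxic T cells, differed by -1.29 (limma, adjusted p = 0.0106). The other 4 T cell genes had values from -1.05 (CD3G) to -0.15 (CD3D) and did not pass. All 3 measured NK and cytotoxic genes stood lower, with differences of -0.71 for GNLY (granulysin), -0.57 for KLRK1 and -0.14 for FCGR3A, and list means from -0.02 to 0.62 in controls and from -0.57 to 0.29 in SDW animals. Of 7 monocyte genes 4 stood higher and 3 lower, with a median of 0.05, and of 4 platelet genes 3 stood higher and 1 lower, with a median of 0.11. No erythroid gene of the list is named here. The part of these cell types in the values of LY75, XCR1 and CCR7 was not tested.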

How the data were processed

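Whole blood RNA from 8 pigs was profiled on Agilent 1-colour (Cy3) arrays. The authors' deposited scanner files hold spot intensities, made with Feature Extraction 10.1.1.1 per the file headers and 9.5.3.1 per the submitters' processing notes; the processed intensity is background-subtracted and detrended within an array. The authors' deposited value table gives intensities for these arrays by a method not given in the sources used here, and 7 of its 8 columns matched a scanner file labelled as a different replicate within the diet; replicate names follow the scanner files.

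Control spots and outlier spots were dropped and spots of a probe averaged; each array's 75th percentile was subtracted on the log2 scale. A probe was tested if it was flagged as above background by the scanner software on 4 or more of 8 arrays and had a value on all 8. The diets were compared with limma 3.58.1 in R 4.3.3 (two-sided, Benjamini-Hochberg over all tested probes, threshold 0.05), tested on simulated data. Symbols came from a RefSeq pig gene table or the files for 2982 probes; the other 40621 are unnamed here. A gene was read from its tested probe of highest mean level. Genes named are the members, the 4 named genes of nearest profile for each member, and up to 3 genes of smallest p per list; SIRPA, CD80, CD8A, CD3G, CD40, CCL17, IRF8, TLR3, CCL21, ACKR4 and the neighbours of the EST probe were added after their values were seen. The members and lists were chosen with earlier results of these data known. Same-numbered animals gave correlations of -0.17, 0.11, 0.33 and -0.38 of their deviations, so the numbers were not taken as pairs. Alternatives were other background corrections, normalizations and filters, slide and replicate blocks, the value table, and arrays or slide 3 left out. Some genes of the lists are not reported here.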

Additional observations from a re-analysis of the deposited data

Results flagged for a closer look

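In groups of 4 animals, a value was listed when its gap to the nearest other animal exceeded Dixon's 95% critical share of the range of the group, which chance alone meets in about 5% of groups; 10 of 100 groups met it. The cDNA probe of LY75 stood at -0.63 in control 1, where the other controls lay between 1.35 and 1.68, and at 0.50 in SDW 4, where the others lay between 0.86 and 0.89. CCR7 stood at 5.87 in control 1, with the other controls between 4.36 and 4.45. Of its neighbours by profile, SLC22A6 (1.44), PEX6 (0.93) and CCS (2.95) were also far above the rest in control 1. So were CD3E (3.46) and TREM1, an activating receptor of myeloid cells (4.68). Among SDW animals, CD274 stood at -0.0091 in SDW 2, with the others between -1.04 and -0.90, and the T cell gene CD3D at 6.25 in SDW 1, with the others between 5.47 and 5.54. Of the 10 values, 8 lie on the arrays of slide 3, and all of these but that of SDW 4 are from 1 animal, control 1. SLC22A6, PEX6 and CCS were picked for their likeness to CCR7, so their values are not separate from its own. The groups are thus not independent, and their count cannot be set against the 5%.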

How the results depend on the processing

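Over 19 alternatives, 1 of them (slide 3 left out with slide as a block) added after the data were seen, the diets differed at an adjusted p under 0.05 (limma) in 0 probes except without slide 3, where 1 unnamed probe passed with and without the slide block (1 probe each); with 1 array left out the count was from 0 to 0. The LY75 EST probe kept its sign in the 18 alternatives that tested it, from -1.28 to -0.98 with 1 array left out. Since its groups do not overlap, leaving out an array could not turn that sign. Its difference was -0.92 without slide 3, -0.86 with slide as a block on those arrays, and -0.26 with normexp. A filter for all 8 arrays left the probe out. The cDNA probe went from -0.78 to -0.01 and XCR1 from -0.85 to -0.15 with 1 array left out; CCR7 went from -0.52 to 0.16. Dendritic cell list genes lower in SDW animals numbered from 6 to 12 with 1 array left out. The replicate block changed no call: 0 probes passed, and the LY75 EST probe stood at -1.16. Of 46 named genes, 18 had the opposite sign under some alternative. The limit of depth is background: the EST probe lies near it.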
